A study of Mus musculus with 8 samples.

Results

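The genes of melanin synthesis and of the melanosome described here are tyrosinase (Tyr), tyrosinase-related protein 1 (Tyrp1), dopachrome tautomerase (Dct), Mitf, Mlana, Slc45a2 and Gpr143 in mouse eyes. They were chosen by gene symbol alone, as every probe set of the array that the platform annotation pairs with 1 of these 7 symbols. This gave 12 probe sets for 6 of the 7 genes, out of 22626 probe sets that are not controls. Mlana had no such probe set and was not analysed here. A total of 11 member probe sets passed the filter on low values, as did 15838 of all probe sets, and only those were tested.

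The study measured total RNA of the eye on 8 microarrays, 2 for each of 4 groups. These were KPAW eyes at 1 month of age, wild type eyes at 1 month, KPAW eyes at 5 days and wild type eyes at 5 days. The labels do not expand the name KPAW. They give the strain C57Bl6 for the 5-day wild type eyes, and no strain for the other groups. The arrays of a group are numbered I and II, and the labels do not say that they came from separate animals. The p-values below therefore measure only the spread between these arrays, which may be technical in part. KPAW arrays I and II at 5 days differed in Xist, a gene of female cells (0.0821 and 3.13), so these 2 were not repeats of 1 RNA sample.

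Melanin is made from tyrosine inside melanosomes, organelles related to lysosomes. In the eye the pigment cells are the retinal pigment epithelium, with the pigmented layers of the iris and ciliary body that share its origin, and the neural crest melanocytes of the iris, ciliary body and choroid. Tyr catalyses the first and rate-limiting reactions, Dct and Tyrp1 act on later intermediates, and Mitf is the transcription factor known to switch on the enzyme genes in both kinds of pigment cell.

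The sequences that carry the known regulatory link between Mitf and the enzyme genes are shown first. Mitf binds the letters TCATGTG, the core of the M-box. Promoter windows reaching from 250 bases before a transcript start to 50 bases after it were read from RefSeq (GRCm38.p6) for Tyr, Tyrp1, Dct and Mitf. Each line gives 30 bases on the strand of the gene, 5′ to 3′, and the capitals mark TCATGTG, or CACATGA where the motif lies on the opposite strand.
Tyr, chr7:87493516-87493545, minus strand, the motif starting 22 bases before the transcript start: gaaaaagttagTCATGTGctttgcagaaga
Tyrp1, chr4:80834155-80834184, plus strand, 47 bases before the start: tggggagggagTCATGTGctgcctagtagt
Dct, chr14:118052379-118052408, minus strand, 151 bases before the start: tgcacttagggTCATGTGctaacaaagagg
Dct, chr14:118052460-118052489, minus strand, motif on the opposite strand, 232 bases before the start: cttggctgggaCACATGAgcccaataaaga

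TCATGTG on either strand was in 1239 of 32851 promoter windows of the mouse, which is 3.77%. With 2 more bases on each side, as in Tyr, it reads AGTCATGTGCT, which on either strand was in 7 windows (0.0213%), those of Tyr and Tyrp1 among them. Dct differs from it in the first letter, reading GGTCATGTGCT. None of the 3 Mitf windows held TCATGTG, which says only that these letters are not in those windows. The RefSeq span of Tyrp1 opens at chr4:80834123, so its motif lies before the transcript start used for the window but inside that span. The matches are a description of sequence, and no binding was measured.

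Signals below are the deposited values scaled so that each array has a trimmed mean of all probe sets equal to that of the others. Differences are on the scale log2(scaled signal + 0.0211), which understates the change of dim probe sets. Array factors ran between 0.711 and 1.26, and the correlation of the 2 arrays of a group was 0.927 for KPAW at 1 month and 0.946 to 0.969 in the other groups. Some arrays and groups stood apart in markers of other cells and tissues. The summed signal of 6 rod genes was 0.664 on KPAW array I at 1 month, 23.9 on KPAW array II and 21.6 and 26.2 on the wild type arrays of that age. The summed signal of 9 hair follicle genes was 5.30 on wild type array I at 5 days and 0.928 on KPAW array I at 5 days, and it was at most 0.231 on each of the other 6 arrays. The summed signal of 8 epidermis genes was 26.2 and 14.5 in KPAW eyes at 1 month, against 5.52 and 5.49 in wild type eyes. At 5 days it was 9.84 and 0.945 in KPAW eyes, against 5.91 and 1.43 in wild type eyes. The summed signal of 7 macrophage genes was 2.05 and 1.52 in KPAW eyes at 1 month, against 1.21 and 1.12 in wild type eyes. That of 4 genes of the iris and ciliary body, which hold pigment cells, was 4.62 and 4.28 in KPAW eyes, against 3.89 and 3.68 in wild type eyes of that age. Within this sum Mgp (1.56 and 1.03 against 0.708 and 0.885) and Aqp1 (1.06 and 0.883 against 0.792 and 0.805) were higher in KPAW eyes without overlap. The arrays overlapped for Car2 (1.73 and 2.21 against 2.25 and 1.83), the brightest of the list, and for Slc4a4. Xist, which marks female cells, read 3.13 on KPAW array II at 5 days and 2.95 and 3.64 on the wild type arrays of that age, and at most 0.0861 on the other 5 arrays. The part of these arrays and cell types in the results was not tested, and results are given without single arrays where they move.

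Markers of both kinds of pigment cell were read in all groups. The summed signal of 9 genes of the retinal pigment epithelium was 11.8 and 11.6 in KPAW eyes and 10.9 and 11.1 in wild type eyes at 1 month. Ttr, which other cells of the eye also make, gave much of this sum. The other 8 genes summed to 5.10 and 6.02 in KPAW and 6.13 and 6.23 in wild type eyes at 1 month, so the order of KPAW and wild type turned without Ttr. At 5 days the 9 genes summed to 5.72 and 5.23 in KPAW eyes and 6.51 and 6.12 in wild type eyes, and the 8 genes to 2.24 and 2.22 in KPAW and 2.53 and 2.40 in wild type eyes. The summed signal of 7 genes of neural crest melanocytes, a list that shares Pmel with the pigment genes below, was 3.85 and 3.11 in KPAW eyes against 2.72 and 2.67 in wild type eyes at 1 month. At 5 days it was 4.47 and 4.07 in KPAW eyes against 5.00 and 5.28 in wild type eyes. Without Pmel the sum at 1 month was 1.07 and 0.855 in KPAW and 0.853 and 0.789 in wild type eyes. Trpm1, which bipolar cells of the retina also use, gave 0.630 and 0.410 of it in KPAW and 0.354 and 0.331 in wild type eyes. Kit went the other way, at 0.127 and 0.131 against 0.199 and 0.174. Of the 5 melanocyte genes tested, 3 were higher in KPAW eyes at 1 month and 2 were lower. The epithelial sum was higher on all arrays of 1 month, with or without Ttr. The melanocyte sum was higher on all arrays of 5 days, but without Pmel KPAW array I at 1 month (1.07) lay above KPAW array I at 5 days (1.01). In RNA of a whole eye, fewer cells of a type and less RNA per cell cannot be told apart.

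The enzymes are taken first. Tyr was read by 3 probe sets, of which 1417717_a_at was the brightest. Its scaled signal was 0.677 and 0.473 in KPAW eyes at 1 month, against 0.368 and 0.371 in wild type eyes at 1 month. At 5 days it was 0.621 and 0.566 in KPAW eyes, against 0.769 and 0.812 in wild type eyes. Wild type eyes thus held both the lowest and the highest Tyr signal of the series, at 1 month and at 5 days. The KPAW arrays of both ages lay between them and overlapped each other. The group means were 0.575 ± 0.144 in KPAW and 0.369 ± 0.00181 in wild type eyes at 1 month, and 0.594 ± 0.0387 in KPAW and 0.791 ± 0.0303 in wild type eyes at 5 days (SD, n = 2 each).

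The other Tyr probe sets did not follow that pattern. Probe set 1448821_at read 0.174 and 0.153 in KPAW and 0.153 and 0.126 in wild type eyes at 1 month, and 0.156 and 0.172 in KPAW and 0.115 and 0.166 in wild type eyes at 5 days. Its 4 groups overlapped each neighbour in order of mean. Probe set 1456095_at was dim, between 0.0512 and 0.101 on all arrays, and its wild type arrays of 1 month, at 0.0512 and 0.0516, lay just under the lowest array of the other groups, at 0.0517. The 3 probe sets of Tyr therefore disagree, and statements on Tyr below name the probe set.

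Tyrp1, which acts late in eumelanin synthesis and stabilises Tyr, was also read by 3 probe sets. The brightest, 1415862_at, gave 1.56 and 1.40 in KPAW eyes at 1 month, against 1.22 and 0.895 in wild type eyes. The arrays of 5 days gave 0.819 and 0.899 in KPAW eyes, against 0.835 and 1.05 in wild type eyes. KPAW eyes at 1 month were above every other array, and the other 3 groups overlapped one another. Probe set 1415861_at gave 1.15 and 1.00 in KPAW and 0.872 and 0.816 in wild type eyes at 1 month, and 0.687 and 0.653 in KPAW and 0.727 and 0.829 in wild type eyes at 5 days. Here too KPAW eyes were the highest group at 1 month, and they were the lowest at 5 days. Probe set 1439409_x_at, of a type that by the array maker's naming can hold probes matching other transcripts, gave 1.64 and 1.10 in KPAW and 0.827 and 1.36 in wild type eyes at 1 month, and 0.582 and 0.666 in KPAW and 0.726 and 0.807 in wild type eyes at 5 days.

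Dct, which converts dopachrome in the middle of the pathway, had 1 probe set. It read 4.82 and 4.0 in KPAW eyes at 1 month, against 3.28 and 3.98 in wild type eyes. The arrays of 5 days read 3.27 and 2.63 in KPAW eyes, against 3.37 and 3.68 in wild type eyes. KPAW eyes were again the highest group at 1 month and the lowest at 5 days, while the wild type arrays of the 2 ages overlapped.

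Mitf, the regulator, was read by 1455214_at at 0.293 and 0.201 in KPAW eyes at 1 month, against 0.162 and 0.213 in wild type eyes. The signal at 5 days was 0.213 and 0.188 in KPAW eyes, against 0.271 and 0.295 in wild type eyes. The wild type eyes at 5 days had the highest mean, but KPAW array I at 1 month lay among them. The second Mitf probe set, 1422025_at, was under the filter, at 0.0172 to 0.0314 on all arrays, and was not tested.

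The melanosome membrane proteins were dimmer. Slc45a2, a transporter of the melanosome whose loss lightens coat and eyes in mice, read 0.255 and 0.239 in KPAW eyes at 1 month with probe set 1451055_at, against 0.259 and 0.235 in wild type eyes. The same probe set read, at 5 days, 0.204 and 0.183 in KPAW eyes, against 0.220 and 0.232 in wild type eyes. Its groups overlapped at 1 month, and all arrays of 1 month were above all arrays of 5 days. Its second probe set, 1437430_at, read between 0.0580 and 0.113. Gpr143, a melanosomal receptor encoded on the X chromosome and mutated in ocular albinism in humans, read 0.120 and 0.130 in KPAW eyes at 1 month, against 0.0928 and 0.0847 in wild type eyes. At 5 days it read 0.0797 and 0.0764 in KPAW eyes, against 0.0959 and 0.0995 in wild type eyes. At 5 days KPAW arrays I and II, with Xist at 0.0821 and 3.13, both lay below the wild type arrays.

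**Figure D1:**
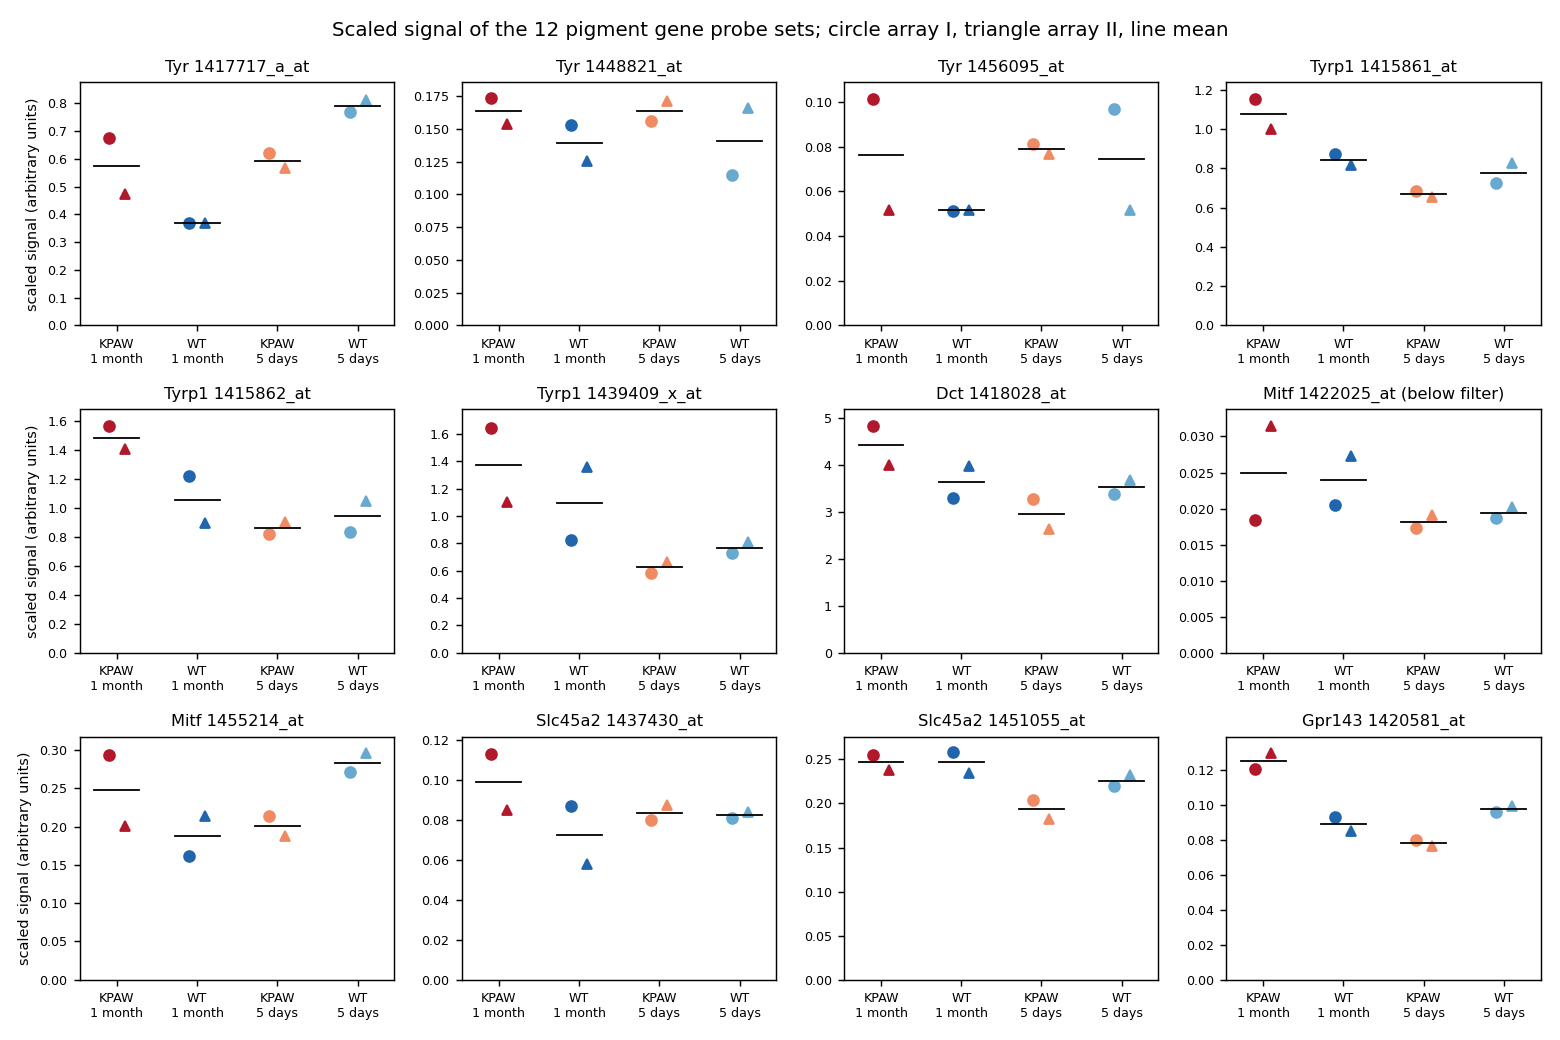
Scaled signal (arbitrary units, axis from 0) of each of the 12 member probe sets on every array, circles for array I and triangles for array II, with a line at each group mean and KPAW left of wild type at each age. For Tyr (1417717_a_at) the wild type arrays of 1 month (0.368 and 0.371) and of 5 days (0.769 and 0.812) are the extremes, whereas for Dct, Gpr143 and 2 of the 3 Tyrp1 probe sets both KPAW arrays of 1 month lie above all others. For Tyrp1 1439409_x_at, wild type array II at 1 month (1.36) lies between the KPAW arrays of that age.

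The first comparison set KPAW against wild type eyes at 1 month. All 11 member probe sets had a log2 fold change above 0, against 48% of all probe sets tested, and none passed the test. Over all probe sets 0.0253% passed, 4 in number, and 1100 (6.95%) had an unadjusted p under 0.05, as did 4 of the 11 members. Tyr (1417717_a_at) was at 0.59 (SE 0.17, adjusted p = 0.643 by limma with Benjamini-Hochberg adjustment), and its 95% interval ran between 0.19 and 0.99. The 3 Tyrp1 probe sets were at 0.49, 0.34 and 0.34, Gpr143 at 0.41, Mitf at 0.35, Dct at 0.28 and Slc45a2 at 0.00 (1451055_at) and 0.37 (1437430_at). The member median was 0.35, beside -0.01 over all probe sets.

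At 1 month the KPAW arrays did not overlap the wild type arrays in 7 of the 11 probe sets, and were the higher in each, an order found in 17% of all probe sets. They were the 3 of Tyr, 2 of Tyrp1, and those of Dct and Gpr143, so Tyr and Tyrp1 were counted more than once. Some were barely apart. The lower KPAW and the higher wild type array read 0.1533 and 0.1528 for Tyr 1448821_at and 0.05178 and 0.05162 for Tyr 1456095_at. For Dct they read 3.999 and 3.977. No member had the opposite order (19.6% of all). On the deposited values, without scaling, the arrays of all 11 overlapped, so the count was 0. KPAW array I, which had little rod signal, was the higher of the pair for 10 of the 11. Without it, 10 of the 11 remained above 0, but Tyr (1417717_a_at) was at 0.34 and Mitf at 0.10, while Gpr143 was at 0.46. With that array kept and KPAW array II left out, Tyr (1417717_a_at) was at 0.84 and passed (adjusted p = 0.0254 by limma), with the lone KPAW array taken to vary like the other groups. On the deposited values without scaling, 8 of the 11 were above 0 and the median of all probe sets was -0.26, so the direction is relative to the array mean.

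The second comparison set KPAW against wild type eyes at 5 days. Here 3 of the 11 member probe sets were above 0, against 52.5% of all probe sets, and 8 were below it. None of the members passed the test, as none did among all probe sets (0% by limma at an adjusted p of 0.05). An unadjusted p under 0.05 was found for 378 of all probe sets (2.39%) and for none of the members. Mitf was at -0.46 (SE 0.20), Tyr (1417717_a_at) at -0.40 (SE 0.17), Dct at -0.26 and Gpr143 at -0.26. The Tyrp1 probe sets were at -0.12, -0.21 and -0.29. The member median was -0.21, beside 0.01 over all probe sets. The KPAW arrays were lower without overlap in 7 of the 11, against 16.6% of all probe sets, and higher without overlap in none (16.8% of all). On the deposited values 2 were lower without overlap, Tyr (1417717_a_at) and Mitf, and 1 was higher, Tyr (1448821_at). Leaving out wild type array I, which held the hair follicle signal, left Tyr (1417717_a_at) at -0.44 and Mitf at -0.52.

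The differences between KPAW and wild type eyes thus lay above 0 at 1 month and mostly below 0 at 5 days, and the change between ages was tested as an interaction. The change was above 0 for 10 of the 11, against 46.3% of all probe sets. None of the 11 passed, as none did among all probe sets (0%), while 932 of all probe sets (5.88%) and 5 of the members had an unadjusted p under 0.05. The change was 0.99 for Tyr (1417717_a_at; SE 0.25), 0.81 for Mitf, 0.67 for Gpr143, 0.55 to 0.62 for the Tyrp1 probe sets and 0.54 for Dct, and the lowest adjusted p among members was 0.809 by limma. The median over the members was 0.55, beside -0.03 over all probe sets. Arrays that did not overlap at either age, with KPAW higher at 1 month and lower at 5 days, were found for 1 probe set each of Tyr, Tyrp1, Dct and Gpr143, which is 4 of 11, against 3.74% of all probe sets. Without scaling the count was 0, and with it Dct was barely apart at 1 month (3.999 in KPAW against 3.977 in wild type eyes). Without KPAW array II at 1 month the Tyr change was 1.24 and passed (adjusted p = 0.0222 by limma), and without KPAW array I it was 0.74 and did not (adjusted p = 0.999).

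**Figure D2:**
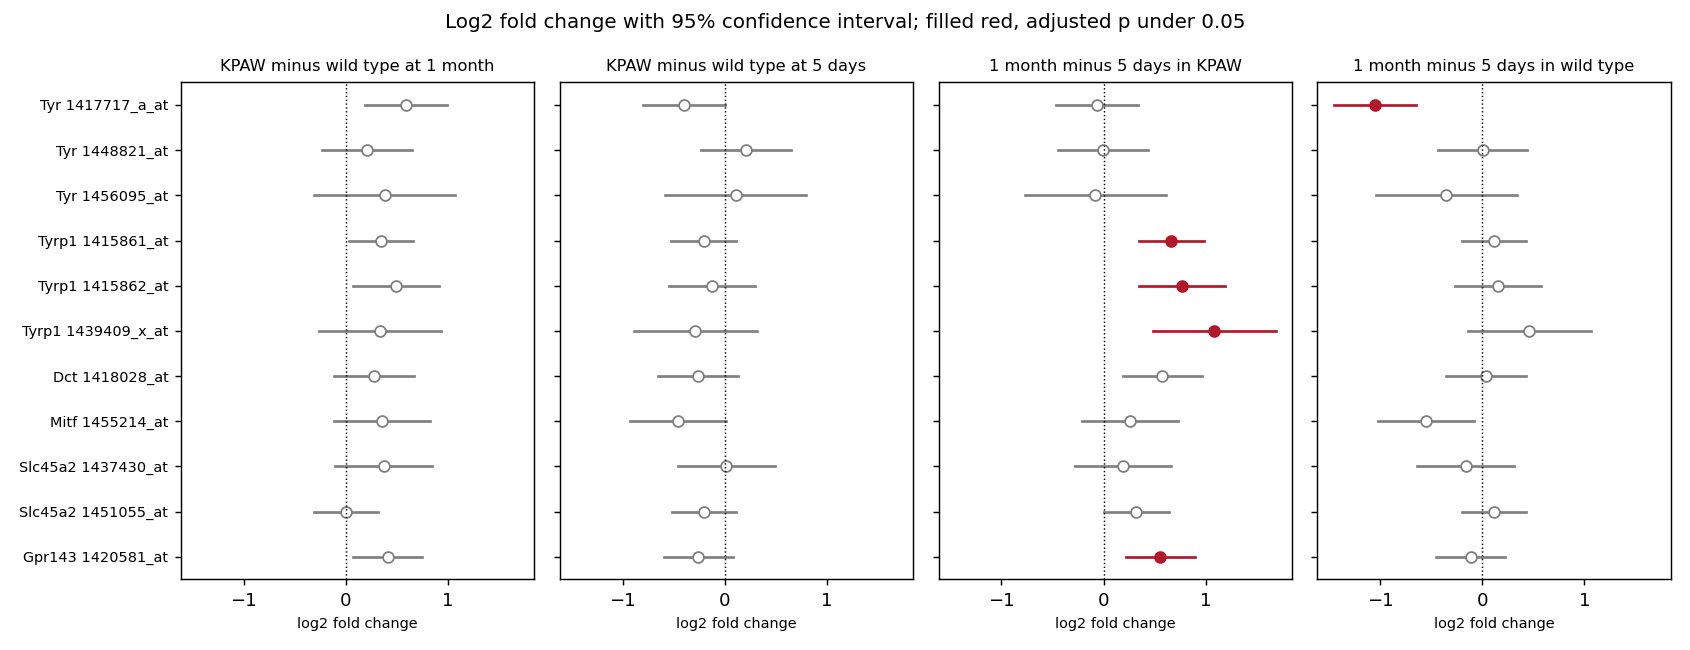
Log2 fold change of every tested member probe set in the comparisons of the design, with 95% intervals of the limma fit (horizontal bars) and a dotted line at 0. Filled red points passed an adjusted p of 0.05: Tyr 1417717_a_at in wild type eyes with age, and 3 Tyrp1 probe sets and Gpr143 in KPAW eyes with age. No point is filled for KPAW against wild type at either age.

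The third comparison followed KPAW eyes with age. Tyrp1 and Gpr143 rose, and no member fell. A total of 4 of the 11 probe sets passed, all higher at 1 month, against 6.76% of all probe sets called higher, 7.51% called lower and 14.3% in either direction. The Tyrp1 probe sets rose by 0.77 (1415862_at, SE 0.18, adjusted p = 0.0299), 0.67 (1415861_at, adjusted p = 0.0183) and 1.08 (1439409_x_at, adjusted p = 0.0311) by limma, and since they read 1 gene they are not independent. Gpr143 rose by 0.56 (SE 0.15, adjusted p = 0.0416). Dct was at 0.58 and did not pass (adjusted p = 0.0583), and Tyr (1417717_a_at) was at -0.06 with an interval of -0.47 to 0.34. The member median was 0.32, beside -0.04 over all probe sets, and in 6 of the 11 the arrays of 1 month lay wholly above those of 5 days (25.3% of all), and in none wholly below (32.2% of all). Without scaling these counts were 7 and 0.

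These calls were close to the threshold. The count was 0 without KPAW array I at 1 month, without KPAW array I at 5 days, without KPAW array II at 5 days, and where the KPAW arrays were fitted alone. The Tyrp1 probe set 1415862_at was between 0.70 and 0.85 and Gpr143 between 0.51 and 0.60 with each array left out in turn. Gpr143 lost its call in every one of those fits.

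The fourth comparison followed wild type eyes with age. The brightest Tyr probe set was called lower and no member rose. This was 1 of the 11 probe sets, a share near the 9.33% of all probe sets that were called lower, while 8.73% were called higher and 18.1% in either direction. Probe set 1417717_a_at of Tyr fell by 1.06 on the log2 scale (SE 0.17, adjusted p = 0.00700 by limma), to 0.481 of its 5-day level. The other Tyr probe sets were at 0.00 (1448821_at, interval -0.44 to 0.44) and -0.35 (1456095_at, interval -1.04 to 0.34). Mitf was at -0.56 and did not pass (adjusted p = 0.0980), and the Tyrp1 probe sets were at 0.12 to 0.46, Dct at 0.04, Gpr143 at -0.11 and the brighter Slc45a2 probe set at 0.12. The member median was 0.00, as was that of all probe sets. The arrays of 1 month lay wholly above those of 5 days in 2 of the 11 (32.5% of all) and wholly below in 4 (33% of all). Without scaling these counts were 7 and 2, the 2 being Tyr (1417717_a_at) and Mitf.

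By Xist both wild type arrays of 5 days were female and both of 1 month were not, so in wild type eyes age and sex cannot be told apart. Of the KPAW arrays only array II at 5 days was high in Xist (3.13). Sex was therefore also unbalanced in KPAW eyes with age and between KPAW and wild type eyes at 5 days, and its part was not tested. The Tyr call also depends on scaling and on 1 array. On the deposited values Tyr (1417717_a_at) was at -0.57 and did not pass (adjusted p = 0.167), while the median of all probe sets was 0.44, so that it lay 1.00 below that median. Without wild type array II at 5 days it was at -1.02 (adjusted p = 0.0542 by limma). Without wild type array I at 5 days, the array with hair follicle signal, it was at -1.09 and passed (adjusted p = 0.0476). The 2 age comparisons set different arrays against each other, but they use the same estimate of the spread, taken over all groups, and are not independent. Each also shares arrays with the KPAW and wild type comparisons above.

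Ratios of 2 genes on the same array do not depend on the scaling. The log2 ratio of Tyr (1417717_a_at) to Dct was -2.83 and -3.08 in KPAW and -3.16 and -3.42 in wild type eyes at 1 month, and -2.40 and -2.22 in KPAW and -2.13 and -2.18 in wild type eyes at 5 days. All 4 arrays of 1 month were below all 4 arrays of 5 days. The mean ratio at 1 month was lower than at 5 days by 0.65 in KPAW and by 1.14 in wild type eyes. The ratio of Tyr to Tyrp1 ran between -1.72 and -1.21 on the 4 arrays of 1 month and between -0.67 and -0.12 on those of 5 days, again without overlap, and so did the ratios to Slc45a2 and to Gpr143. Such a pattern was common: 27.8% of all probe sets were lower relative to Dct on every array of 1 month, and 28.8% relative to Tyrp1. The ratio of 1448821_at to Dct overlapped between the ages, as did that of 1456095_at. Tyr and the later enzymes changed unequally with age by the brightest Tyr probe set, in both kinds of eye, and these ratios do not say which gene moved. With 2 arrays against 2, an exact permutation test cannot give a p below 0.333, so none is given within a kind of eye.

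**Figure D3:**
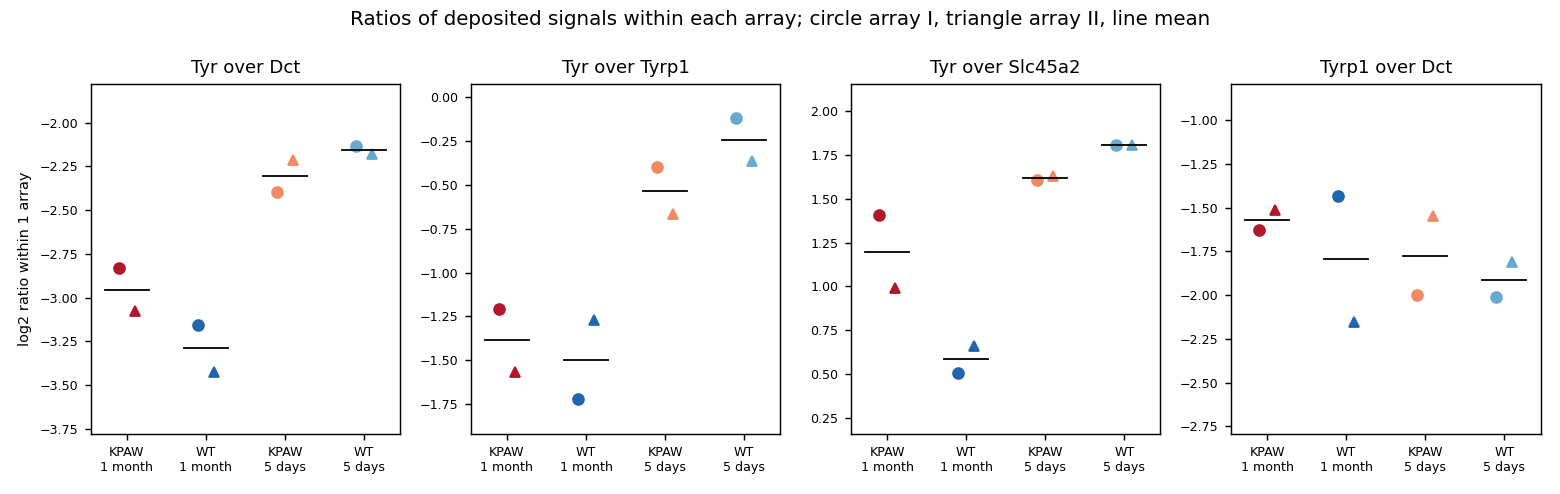
Log2 ratio of the deposited signals of pairs of member genes on the same array, for KPAW and wild type eyes at 1 month and 5 days; each point is 1 array, and only shifts between arrays can be read, since levels of different probe sets cannot be set against each other. Tyr relative to Dct is between -3.42 and -2.83 at 1 month and between -2.40 and -2.13 at 5 days.

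Other genes of the melanosome were taken from lists. Of 10 genes of the melanosome matrix and membrane, 5 were tested. With age 1 rose in KPAW eyes, and 3 fell and 1 rose in wild type eyes. Over all probe sets 14.3% were called in KPAW eyes and 18.1% in wild type eyes, in either direction. Pmel, which forms the fibrils on which melanin is laid down, read 2.78 and 2.25 in KPAW and 1.87 and 1.88 in wild type eyes at 1 month, and 3.46 and 2.83 in KPAW and 3.72 and 3.92 in wild type eyes at 5 days. It fell by 1.02 in wild type eyes (adjusted p = 0.00492) and was at -0.32 in KPAW eyes (adjusted p = 0.205 by limma). Wild type eyes were thus again the extremes. Myo7a, a motor that moves melanosomes in the pigment epithelium, fell by 0.84 and Atp7a, the copper pump that supplies Tyr, by 0.78 in wild type eyes. Gpnmb, a membrane glycoprotein related to Pmel, rose by 1.32 in KPAW and by 0.65 in wild type eyes. Pmel passed without any 1 wild type array, whereas the count of genes lower in wild type eyes was 1 without wild type array I at 1 month or either wild type array of 5 days, 2 without array II at 1 month, and 0 on the deposited values. Without any 1 of the 4 wild type arrays Gpnmb lost its call in wild type eyes.

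Of 27 genes of melanosome biogenesis and sorting, 20 were tested. In KPAW eyes 1 rose and 1 fell with age, and in wild type eyes 2 rose and 1 fell. These are 10% and 15% of the genes tested, under the 14.3% and 18.1% called among all probe sets. Lyst, the large vesicle-trafficking protein behind the beige coat, rose by 0.67 in KPAW and by 0.74 in wild type eyes. Ap3m1, a subunit of the AP-3 sorting adaptor, fell by 0.77 in KPAW eyes. Hps3, of a complex needed to deliver melanosome cargo, rose by 0.85 and the AP-3 subunit Ap3s1 fell by 0.64 in wild type eyes. Lyst kept its call in KPAW eyes without any 1 wild type array and lost it without any 1 KPAW array, and Ap3m1 lost its call without any 1 wild type array. None of the calls of the list was kept in wild type eyes without array II at 1 month or array II at 5 days, and none in KPAW eyes without array I at 1 month or either array of 5 days. The list medians, 0.09 in KPAW and 0.14 in wild type eyes, were near those of all probe sets.

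Of 5 genes that move melanosomes along actin, 4 were tested, and with age 2 rose in KPAW and 1 in wild type eyes. Over all probe sets 6.76% were called higher in KPAW eyes and 8.73% in wild type eyes, and a list of 4 genes gives only a coarse share. Mlph, the linker between Rab27a and the motor, rose by 1.28 in KPAW (adjusted p = 0.00434) and by 0.72 in wild type eyes (adjusted p = 0.0299 by limma). It read 0.219 and 0.172 in KPAW and 0.148 and 0.132 in wild type eyes at 1 month, and 0.0770 and 0.0587 in KPAW and 0.0774 and 0.0760 in wild type eyes at 5 days. The arrays of 1 month did not overlap those of 5 days. Myo5a, the motor, rose by 0.71 in KPAW eyes and was at 0.48 in wild type eyes, where it did not pass. In KPAW eyes Mlph kept its call without any 1 array and Myo5a lost it in every such fit. In wild type eyes Mlph lost its call without any 1 of the 4 wild type arrays.

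Of 17 regulators and relatives of Mitf, 12 were tested, and with age 1 rose and 2 fell in KPAW and 2 fell in wild type eyes. These are 25% and 16.7% of the genes tested, beside 14.3% and 18.1% called among all probe sets in either direction. The share in wild type eyes was thus under that of all probe sets. Otx2, a homeodomain factor of the retina and pigment epithelium, fell by 1.51 in KPAW eyes (adjusted p = 0.00768) and was at -0.81 in wild type eyes (adjusted p = 0.0560 by limma). Kit, the receptor of melanoblasts, fell by 0.53 and the ligand Edn3 rose by 0.74 in KPAW eyes. Kitl, the ligand of Kit, fell by 0.75 and the endothelin receptor Ednrb by 0.77 in wild type eyes. Neither passed on the deposited values, nor without wild type array II at 1 month or wild type array II at 5 days, and Ednrb lost its call also without wild type array I of either age. In KPAW eyes Kit and Edn3 lost their calls without any 1 array, and Otx2 lost its call without KPAW array II at 5 days. Mc1r, the melanocortin receptor, was listed at the lowest value of the table on 6 of the 8 arrays and Tfec, a relative of Mitf, on all 8.

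The markers of the 2 kinds of pigment cell were counted in the same way. Among 9 genes of the retinal pigment epithelium, 6 rose in KPAW and 5 in wild type eyes, and none fell, where 6.76% and 8.73% of all probe sets were called higher. Rpe65, the isomerase of the visual cycle, rose by 3.60 in KPAW and 3.66 in wild type eyes, Rgr by 1.64 and 1.73, Lrat by 1.48 and 1.56, and Rdh5 by 1.29 and 0.99. These 4 kept their calls without any 1 array. Lrat was listed at the lowest value of the table on array I of both groups at 5 days. The size of its rise is therefore set in part by that floor and by the added value. Among 5 tested melanocyte genes, 1 fell in KPAW eyes (Kit) and 3 fell in wild type eyes. The latter were Trpm1, at -1.0, Pmel and Ednrb. Trpm1 is also used by bipolar cells of the retina, and Pmel by the pigment epithelium. Among all probe sets 7.51% were called lower in KPAW and 9.33% in wild type eyes. Of these, Pmel alone kept its call in wild type eyes without any 1 wild type array, Kit lost its call in KPAW eyes without any 1 array, and none passed on the deposited values.

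In KPAW against wild type eyes no gene of the 6 lists passed at 1 month or at 5 days, nor in the interaction, and the values farthest from 0 in each list are given as such. At 1 month they were 0.41 for Pmel and 0.38 for Gpnmb, -0.47 for Hps3 and 0.37 for Rab38, a small GTPase that carries Tyr and Tyrp1 cargo, 0.42 for Mlph and 0.17 for Rab27a, -0.49 for Otx2 and -0.46 for Kit, 0.34 for Ttr and -0.33 for Stra6 of the pigment epithelium, and 0.54 for Trpm1. The adjusted p of these was 0.643 to 0.868 by limma, and Otx2 passed where KPAW array II at 1 month was left out. At 5 days they were -0.38 for Myo7a and -0.29 for Oca2, -0.37 for Dtnbp1 and 0.26 for Bloc1s3, -0.15 for Mlph and -0.14 for Myo5a, -0.38 for Usf1 and -0.33 for Kitl, -0.55 for Stra6 and -0.27 for Rdh5, and -0.34 for Trpm1. Pmel was at -0.29 there, and its change between the ages was 0.70 (adjusted p = 0.809). The matrix and membrane list had 4 of 5 genes above 0 at 1 month (median 0.25) and 0 of 5 at 5 days (median -0.29), whereas the biogenesis list had 7 of 20 above 0 at 1 month (median -0.09) and 9 of 20 at 5 days (median -0.01).

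**Figure D4:**
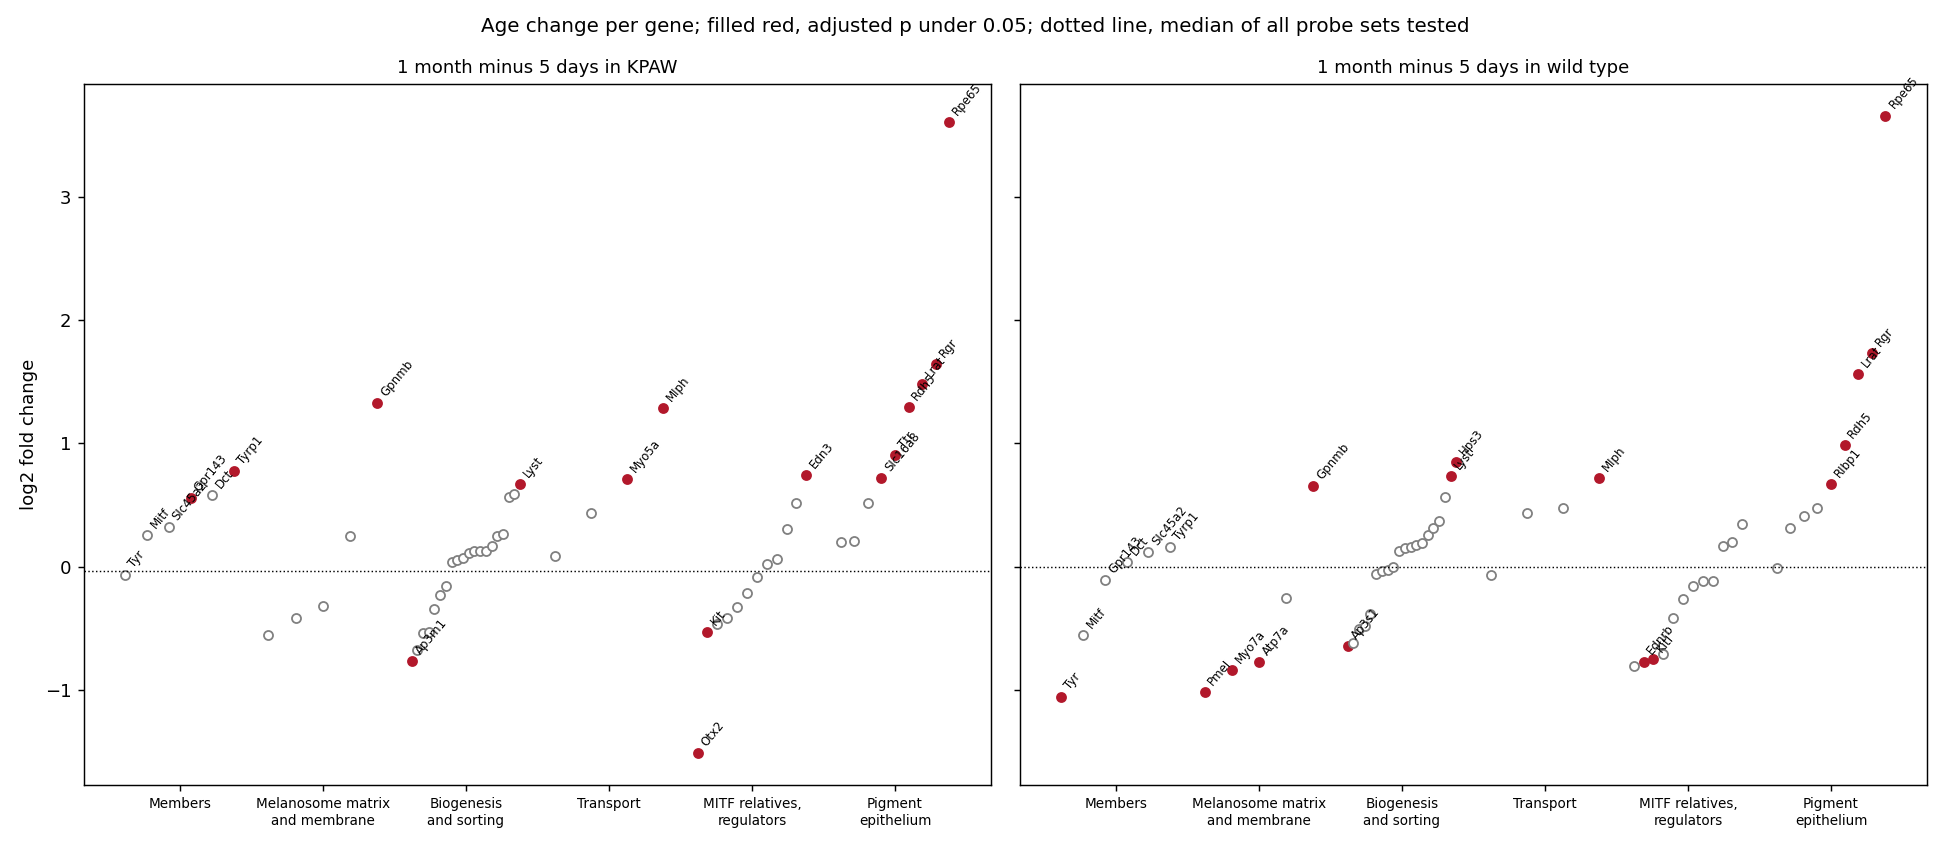
Log2 fold change with age (1 month minus 5 days) of each gene of the melanosome lists by its representative probe set, in KPAW eyes (left) and wild type eyes (right); filled red points passed an adjusted p of 0.05 in limma and the dotted line is the median of all probe sets. Rpe65 is the highest in both panels (3.60 in KPAW and 3.66 in wild type), and Tyr (-1.06) and Pmel (-1.02) are the lowest in wild type eyes.

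Tyr was the only member whose representative probe set differed by over 2-fold between its highest and lowest array (2.21-fold; the other 5 were between 1.42-fold and 1.91-fold). The genes whose profile over the 8 arrays was most like that of Tyr were Eng, the endothelial receptor endoglin, with a root mean square log2 difference of 0.0836 after centring each gene, and Crtap, of collagen hydroxylation, at 0.0955. The next were Lum, Tom1, Rab34 and Bckdhb, among 9486 genes compared. Their likeness is a description over 8 arrays and was not tested.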

How the data were processed

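Total RNA of mouse eyes was measured on 8 one-colour arrays. The deposited table gives 1 signal per probe set and array, made by the authors; the software, background correction and scaling are not given in the sources used here. Its lowest value was 0.01. Of 22690 probe sets, 64 controls were left out. The platform annotation named 20380 of the others with 1 gene symbol, 691 with several and 1555 with none, and coordinates are RefSeq's. All columns were used. Each array was scaled to a common trimmed mean (2% off each end), and log2(signal + 0.0211) was taken, the added value being the 20th percentile. Probe sets with a mean under the 30th percentile (0.0406) were left out. Fits were made in R 4.3.3 with limma 3.58.1 over all 4 groups, with 4 residual degrees of freedom and Benjamini-Hochberg adjustment over all probe sets; a call is an adjusted p under 0.05. The scripts were tested on simulated data. Of several probe sets, the one with the highest mean stood for a gene. From each list the called genes were named, up to 4 by size, with the members' nearest profiles. The members and lists were chosen with earlier results of these data known. Alternatives were quantile and median scaling, no scaling, other added values, no filter or a stricter one, a variance not following signal, a fit of only the 2 groups compared, the replicate number as a block, 1 probe set for each gene, and leaving out each array. The number of arrays limits the precision. Within-array ratios were added after the values were seen.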

Additional observations from a re-analysis of the deposited data

Results flagged for a closer look

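The KPAW minus wild type difference went opposite ways at the 2 ages, above 0 at 1 month and below 0 at 5 days, for 4 member probe sets whose scaled KPAW and wild type arrays did not overlap at either age. For Dct the scaled arrays were barely apart at 1 month (3.999 in KPAW against 3.977 in wild type eyes). On the deposited values, without scaling, the arrays of all 4 overlapped at 1 month. The change of the difference (1 month minus 5 days) was 0.991 for Tyr (1417717_a_at), 0.671 for Gpr143 (1420581_at), 0.550 for Tyrp1 (1415861_at) and 0.539 for Dct (1418028_at). The interaction was tested with limma and did not pass for any of them (adjusted p = 0.809 each). Over all probe sets 3.74% had this order of arrays and 3.77% the opposite one.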

How the results depend on the processing

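The number of member probe sets called was within 1.5 times the reported one in 80 of 94 alternatives. Of 999 member fold changes under other settings, 915 kept direction and side of the threshold, 31 lost their call, 8 gained one and 45 changed sign, none of these passing. The cause was not tested. In wild type eyes with age the count was 1, 2 on the deposited values (Tyrp1 1439409_x_at at 0.96 and Dct at 0.54, Tyr lost), and 0 to 2 with 1 array left out: 2 without KPAW array I or II at 1 month (Mitf added), 0 without wild type array II at 5 days. In KPAW eyes the count was 4, 2 on the deposited values, 0 with the 2 groups alone, 2 with 1 probe set per gene (where fewer are tested), and 0 to 4 with 1 array left out. For KPAW against wild type at 1 month, and for the interaction, it was 0 to 1, the call being Tyr without KPAW array II at 1 month, and at 5 days it was 0 throughout. The interaction uses all groups, so it has no fit of 2 groups alone. Deviations of same-numbered arrays correlated at -0.02 to 0.31, so the numbers were not shown to pair the arrays. With the replicate block the count was 3 in KPAW eyes with age (Gpr143 lost, adjusted p = 0.0539), 1 in wild type eyes and 0 in the other comparisons.

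Signs turned on the deposited values for KPAW against wild type at 1 month in Tyr 1448821_at (-0.044), Dct (-0.000229) and Slc45a2 1451055_at (-0.26), and at 5 days in Tyrp1 1415862_at (0.074). They did so in the interaction for Tyr 1456095_at (-0.082), Slc45a2 1437430_at (-0.037) and Slc45a2 1451055_at (-0.24). In wild type eyes with age they did so for Tyr 1456095_at (0.019), Slc45a2 1437430_at (0.25) and Gpr143 (0.31), and in KPAW eyes for Tyr 1448821_at (0.022). The median of all probe sets on those values was -0.26 at 1 month, 0.18 at 5 days, -0.45 in the interaction, 0.44 in wild type and -0.01 in KPAW eyes with age. Quantile and median scaling gave Slc45a2 1437430_at -0.026 and -0.021 at 5 days, and Tyr 1448821_at 0.046 and 0.067 in the interaction and -0.041 and -0.076 in wild type eyes with age. Tyr 1448821_at was also at 0.00483 in KPAW eyes with quantile scaling and -0.000872 in wild type eyes with the higher added value, and Dct was at -0.052 in wild type eyes with median scaling.

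With 1 array left out, signs turned at 1 month in Tyrp1 1439409_x_at (-0.017 to 0.69) and Slc45a2 1451055_at (-0.064 to 0.065). At 5 days they turned in Tyr 1448821_at (-0.017 to 0.44), Tyr 1456095_at (-0.24 to 0.46), Tyrp1 1415862_at (-0.28 to 0.038) and Slc45a2 1437430_at (-0.036 to 0.070). In the interaction they turned in Tyr 1448821_at (-0.23 to 0.22) and Tyr 1456095_at (-0.10 to 0.64). In wild type eyes with age they turned in Tyr 1448821_at (-0.23 to 0.23), Tyrp1 1415862_at (-0.061 to 0.37), Dct (-0.10 to 0.18) and Slc45a2 1437430_at (-0.39 to 0.063). In KPAW eyes they turned in Tyr 1417717_a_at (-0.31 to 0.18), Tyr 1448821_at (-0.082 to 0.078) and Tyr 1456095_at (-0.45 to 0.29). Dim probe sets, such as Gpr143 and the lesser ones of Tyr and Slc45a2, carry the least signal over the lowest value of the table.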
